A study of Mus musculus with 47 samples.

Results

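The comparison described here is between diabetic and non-diabetic vehicle-treated mice on Day 5, and it holds 14 of the 47 hypothalamus libraries of a bulk RNA-seq series. The libraries were chosen by their labels alone: 7 are labelled diabetic and 7 non-diabetic, and no measured value was used. All 14 came from male ob/ob mice listed as 11 weeks old, which carry no functional leptin gene. Each mouse received vehicle by intracerebroventricular (icv) injection, was pair-fed to FGF1-treated mice, and was killed on Day 5 after the injection, with 1 mouse per library. In the series, a single icv dose of 3 µg FGF1 was compared with vehicle on Days 1, 5 and 42. From the rest of the series, the 9 FGF1 libraries of Day 5 entered the fit to help measure the spread between mice and to give a scale for the size of a difference. The labels give no blood glucose value and do not say how a mouse was called diabetic. The study's methods set a blood glucose limit to be passed on consecutive days and describe mice that stayed under it as left out, and they do not mention a non-diabetic vehicle group. The deposited sample table gives both groups 1 name, so the division rests on the library labels. Day 5 is the day with both kinds of vehicle mice, so the comparison asks what the label alone goes with in hypothalamic gene expression.

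Leptin, a hormone of fat tissue, acts on hypothalamic neurons that control feeding and blood glucose. In the arcuate nucleus, neurons that make the peptides of Agrp and Npy drive feeding and neurons that make the peptides of Pomc restrain it. Mice without leptin overeat and become obese, and how high their blood glucose climbs differs between animals and strain backgrounds.

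The deposited counts ran from 8005968 to 9864890 per library in the non-diabetic group (median 8937263) and from 7579695 to 12451642 in the diabetic group (median 10052056). Total counts did not differ past the threshold (two-sided exact permutation p = 0.115, adjusted p = 0.574 over 5 library measures). The shares of counts from ribosomal protein genes (exact permutation p = 0.530), haemoglobin genes (p = 0.614) and the 50 most abundant genes (p = 0.343) did not either, nor did the number of genes detected (p = 0.462). Precision was lower for rare transcripts: the median standard error of a log2 fold change was 0.15 for genes with a mean of 1 to 10 CPM (counts per 1e6 counts of the library, scaled by TMM factors) and 0.036 for genes at 100 CPM or more.

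The tissue label held in every library. Avp, the vasopressin gene of the paraventricular and supraoptic nuclei, ran from 149 to 403 CPM over the 14 libraries, and Oxt, which encodes oxytocin, from 131 to 198 CPM. Hcrt and Pmch, the orexin and melanin-concentrating hormone genes of the lateral hypothalamus, ran from 41.7 to 80.4 CPM and from 58.2 to 94.8 CPM. Nkx2-1, a transcription factor that marks the ventral hypothalamus in development, had its lowest count at 30 reads. Agrp ran from 5.25 to 22.4 CPM and Pomc from 5.21 to 15.0 CPM.

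Non-diabetic library 2 stood apart from the other 13 libraries. In it, 34 genes were more than 1 log2 unit above the highest of the other libraries (on CPM + 0.5), where no other library had more than 1 such gene. Most are known as genes of the interferon-gamma response, antigen presentation or microglia. Gbp2, an interferon-induced GTPase, stood at 90.5 CPM in this library and at no more than 7.60 CPM in the other 13. Cd74, the invariant chain of MHC class II, stood at 59.7 CPM, with 7.80 CPM as the highest value elsewhere. H2-K1, an MHC class I heavy chain, stood at 123 CPM against at most 34.7 CPM, and C3, the central complement component, at 38.1 CPM against at most 7.22 CPM. Among all 47 libraries of the series, this library ranked 1 in the summed levels of interferon-inducible GTPases, MHC class I, MHC class II and microglia markers. These genes were chosen after their values were seen. Because 1 mouse holds these levels in the non-diabetic group, many results below are given with and without that library, and the reason for its levels was not tested.

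**Figure D1:**
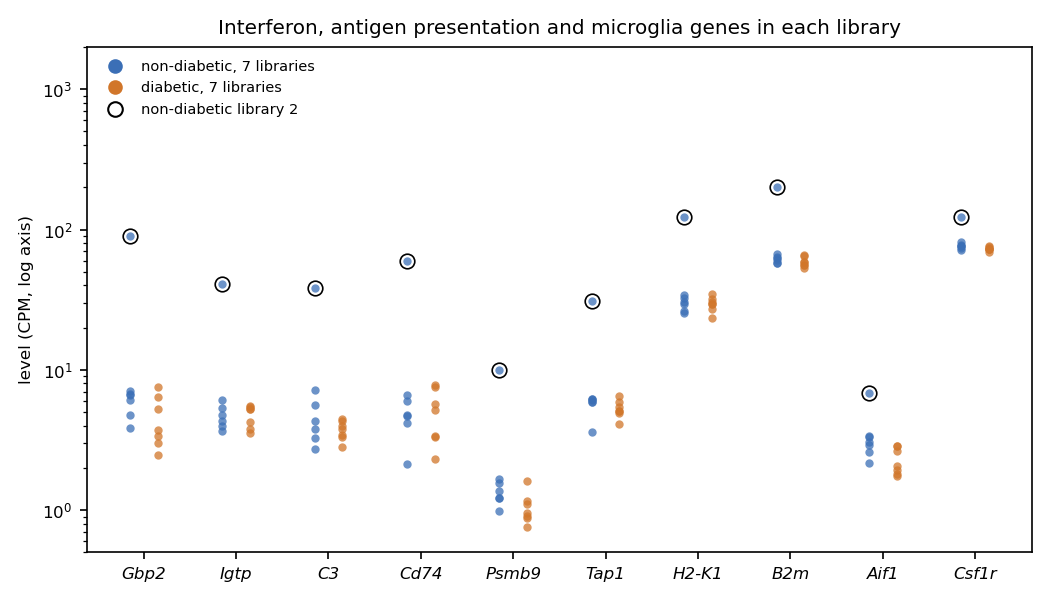
Levels of 10 interferon, antigen presentation, complement and microglia genes in the 14 vehicle libraries of Day 5, in CPM on a log axis, with 7 non-diabetic and 7 diabetic libraries as points and non-diabetic library 2 circled. Gbp2 stood at 90.5 CPM in the circled library and at no more than 7.60 CPM in the others, and apart from that library the groups overlap in each gene shown.

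A pair of libraries, 1 from each group, stood apart in another direction. On the leading principal component of log2 CPM (18.7% of the variance), non-diabetic library 1 scored -18.2 and diabetic library 1 scored -23.2, below the other 12 libraries. Genes of midbrain dopamine neurons weigh on this side, among them Slc6a3, the dopamine transporter, at 172 and 169 CPM in the 2 libraries. Genes of the striatum and basal forebrain weigh on the opposite side. The labels were mixed along this component, with mean scores of 0.358 and -0.358, and on the next one (17.2% of the variance) the group ranges overlapped as well. Over all genes, the label took 6.96% of the variance among the 14 libraries, where 1 of 13 degrees of freedom corresponds to 7.69%.

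Across the 14221 genes tested, the differences between the groups were small. With edgeR, 0 genes (0%) passed an adjusted p-value under 0.05 together with an absolute log2 fold change above 0.5, and 0 genes (0%) passed at any fold. DESeq2, limma-trend and limma-voom also gave 0 genes. At an unadjusted p-value under 0.05 there were 879 genes with edgeR (6.18% of those tested), 432 higher (3.04%) and 447 lower (3.14%) in diabetic mice, and 734 with DESeq2, 876 with limma-trend and 1032 with limma-voom. The smallest adjusted p-value in edgeR was 0.315.

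The median absolute log2 fold change was 0.048, and 77.7% of genes differed by less than 0.1. For 12907 genes (90.8%) the whole 95% interval of the log2 fold change lay within 0.5 of no difference, and for 99.4% it lay within 1. The difference of group means was smaller than the pooled within-group SD for 12891 genes (90.7%), with a median ratio of 0.392. The median within-group SD of log2 CPM was 0.11 in non-diabetic mice and 0.12 in diabetic mice. In the same fit, the median absolute log2 fold change was 0.087 between FGF1 and non-diabetic vehicle and 0.10 between FGF1 and diabetic vehicle. These 2 comparisons share their vehicle libraries with the one described, and they gave 370 called genes (2.6%) and 554 called genes (3.9%).

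The size of a difference went with abundance. The median absolute log2 fold change was 0.10 over 3495 genes at 1 to 10 CPM, 0.045 over 8127 genes at 10 to 100 CPM and 0.027 over 2598 genes at 100 CPM or more. Absolute log2 fold changes above 0.5 were found for 51 genes, of which 48 had 1 to 10 CPM and 0 had 100 CPM or more. In diabetic mice 10 of the 51 were higher and 41 lower, and non-diabetic library 2 held the highest level of 30 of the 41. Without that library 35 genes exceeded 0.5, 18 of them among the 51, and 719 genes had an unadjusted p-value under 0.05 in edgeR. That count of 35 was the lowest with a library left out in turn, and the highest was 93, without non-diabetic library 1. Thinned counts gave 84 genes above 0.5.

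**Figure D2:**
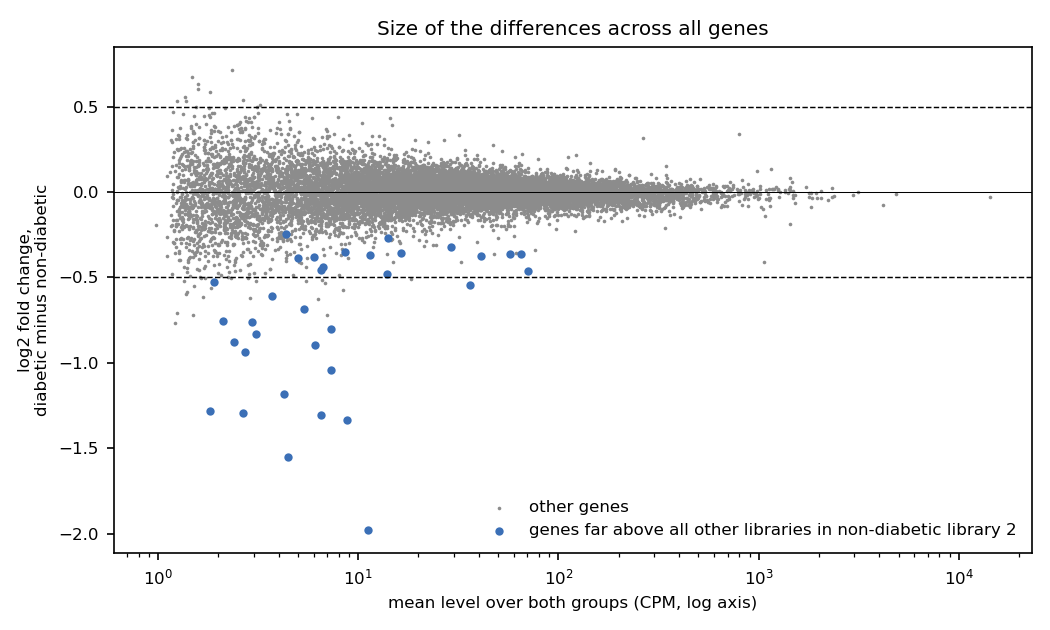
Log2 fold change of diabetic against non-diabetic vehicle mice for each of 14221 genes (y axis) against the mean level in CPM on a log axis, with dashed lines at 0.5 and -0.5. Blue points are the 34 genes more than 1 log2 unit above all other libraries in non-diabetic library 2, and these include Gbp2 at -1.98, the largest difference of all genes.

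Of the 12 genes with the smallest p-values, 6 in each direction, none passed the adjusted threshold, and their known functions are mixed. Zbtb8b, a zinc finger and BTB domain protein (chr4:129425765-129440853, minus strand, GRCm38), ran from 5.14 to 7.54 CPM with a median of 6.94 in non-diabetic mice and from 8.25 to 9.88 CPM with a median of 9.36 in diabetic mice. Its log2 fold change was 0.44 (SE 0.088, 95% interval 0.26 to 0.62, adjusted p = 0.315). Every diabetic library lay above every non-diabetic library, and the exact permutation p of 0.000583 is the smallest that 7 against 7 libraries can give. Zbtb8b was chosen by its p-value in these same libraries, so this exact p is no separate support. Tut1, which adds uridines to U6 small nuclear RNA, ran from 24.5 to 30.7 CPM (median 29.4) in non-diabetic and from 31.6 to 35.2 CPM (median 32.6) in diabetic mice, with a log2 fold change of 0.19 (SE 0.047, adjusted p = 0.549). Khdc4, an RNA-binding protein of splicing, ran from 84.3 to 92.9 CPM (median 89.5) and from 93.4 to 101 CPM (median 95.6), with a log2 fold change of 0.11 (SE 0.029, adjusted p = 0.549). Both genes separated the groups without overlap, at differences of a few CPM. The remaining 3 on this side were Cdr2l, an autoantigen of cerebellar degeneration (0.20), 2510039O18Rik (0.20) and the deubiquitinase Usp12 (0.17).

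On the lower side, Selplg, the P-selectin ligand that microglia carry in the brain (chr5:113818536-113832644, minus strand, GRCm38), had the largest difference of the 12. It ran from 16.1 to 30.5 CPM with a median of 21.5 in non-diabetic mice and from 11.3 to 18.9 CPM with a median of 14.5 in diabetic mice. Its log2 fold change was -0.51 (SE 0.11, 95% interval -0.75 to -0.28, adjusted p = 0.359), and -0.41 without non-diabetic library 2, which held its highest level. The groups overlapped, with 4 of 7 diabetic libraries below the non-diabetic range. Nckap5, an Nck-associated protein, ran from 14.3 to 17.3 CPM (median 15.1) in non-diabetic and from 10.5 to 15.0 CPM (median 11.3) in diabetic mice, with a log2 fold change of -0.36 (SE 0.078, adjusted p = 0.315). Of the diabetic libraries 6 lay below the non-diabetic range and 1 inside it. Brms1l, a subunit of the Sin3 histone deacetylase complex (-0.20), Snx14, a sorting nexin of lipid handling (-0.19), Dusp19, a phosphatase (-0.32), and Cog5, a subunit of a Golgi tethering complex (-0.16), completed this side. Exons of Snx14 and Dusp19 overlap those of Gm20537 and Nup35 on the same strand, so counting may have shared their reads.

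Groups that did not overlap were rare. Every diabetic library lay above every non-diabetic library for 10 genes (0.0703% of those tested) and below for 4 genes (0.0281%). For a single gene, such a separation in either direction has an exact permutation p of 0.000583, and 14221 genes were compared. The 10 genes were Zbtb8b, Tut1, Khdc4, Cdr2l, 2510039O18Rik, C1qbp, Lsm7, Mmp14, Pole and Zfp13. C1qbp, a mitochondrial matrix protein, differed by a log2 fold change of 0.18, Lsm7, of the complex that binds U6 RNA, by 0.19, Mmp14, a membrane-bound matrix metalloproteinase, by 0.33, and Pole, a DNA polymerase, by 0.38. Below were Hpgds, the prostaglandin D synthase found in microglia (-0.25), the checkpoint protein Hus1 (-0.13), Mettl14, a subunit of the N6-methyladenosine RNA methyltransferase (-0.27), and Mre11a, a DNA repair nuclease (-0.23). Their adjusted p-values in edgeR ran from 0.315 to 0.717. Those of these 14 that the rule for named genes did not take were named after their values were seen.

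**Figure D3:**
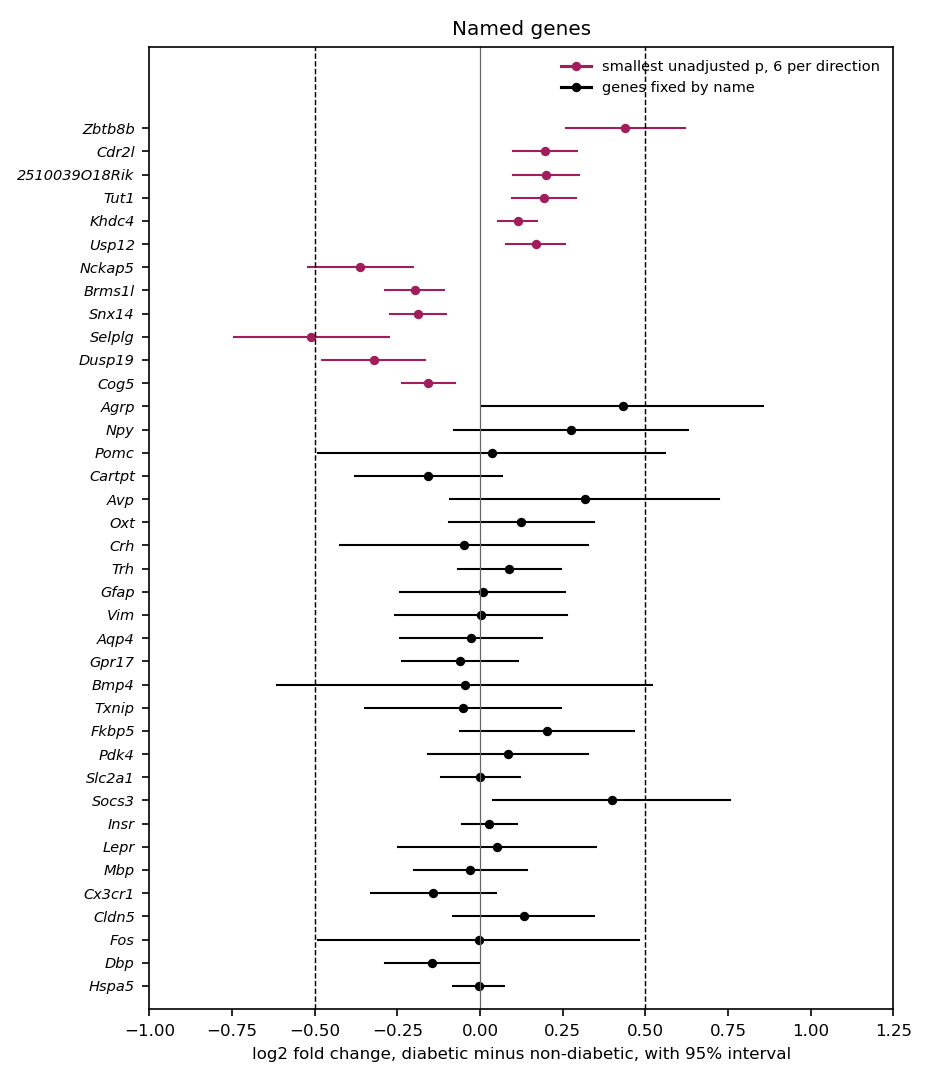
Log2 fold change of diabetic against non-diabetic vehicle mice (7 libraries each) with its 95% interval for the 12 genes of smallest unadjusted p-value, 6 in each direction, and for genes named by symbol. Dashed lines mark 0.5 and -0.5, and most of the intervals lie wholly between them.

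Of 28 genes chosen by symbol for the tissue, the disease and FGF1, 27 were in the table, and none passed the test in edgeR. Of their log2 fold changes 16 were within 0.1 of no difference, Agrp was highest at 0.43, and Agrp, Socs3 and Dbp had an unadjusted p-value under 0.05. Ttr, the transthyretin gene of the choroid plexus, was not in the table. Agrp, the arcuate peptide that drives feeding, ran from 5.25 to 18.1 CPM with a median of 13.4 in non-diabetic mice and from 10.8 to 22.4 CPM with a median of 17.2 in diabetic mice. Its log2 fold change was 0.43 (SE 0.21, 95% interval 0.0068 to 0.86, adjusted p = 0.798), and the exact permutation p was 0.132. The ranges overlapped, with 5 of 7 diabetic libraries above the non-diabetic median, and without non-diabetic library 2, which was lowest, the log2 fold change was 0.30. Agrp shares exon sequence with Gm5914 on its strand. Npy, made by the same neurons, differed by 0.28 (SE 0.17, adjusted p = 0.845) with all 7 diabetic libraries above the non-diabetic median of 36.5 CPM and 2 above the non-diabetic range. Non-diabetic library 2 was lowest in Npy as well, and without it the log2 fold change was 0.16.

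Pomc, the precursor of the satiety peptide alpha-MSH, was measured less precisely. It ran from 5.82 to 10.4 CPM (median 7.09) in non-diabetic mice and from 5.21 to 15.0 CPM (median 7.24) in diabetic mice, with a log2 fold change of 0.035 (SE 0.26, 95% interval -0.49 to 0.56). Differences within that interval could not be told from none at this spread between mice. Cartpt, a peptide that restrains feeding, differed by -0.16 (SE 0.11). Avp ran from 149 to 327 CPM (median 233) in non-diabetic and from 164 to 403 CPM (median 299) in diabetic mice, with a log2 fold change of 0.32 (SE 0.20, 95% interval -0.091 to 0.72, adjusted p = 0.845). The ranges of Avp overlapped widely, with 2 diabetic libraries above the non-diabetic highest, and the log2 fold change was 0.23 without non-diabetic library 2. Oxt (0.12), Trh, the thyrotropin-releasing hormone gene (0.088), and Crh, the corticotropin-releasing hormone gene (-0.048), differed by less than their SDs between mice.

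Genes of hormone signalling and glucose handling were close to equal. Insr, the insulin receptor, differed by 0.028 (95% interval -0.056 to 0.11), Lepr, the leptin receptor, by 0.052 (-0.25 to 0.35), and Slc2a1, the glucose transporter of the blood-brain barrier, by 0.00059 (-0.12 to 0.12). Txnip, a thioredoxin inhibitor whose gene responds to glucose in many cells, differed by -0.052 (-0.35 to 0.24). Its 7 diabetic libraries all lay outside the non-diabetic range of 60.7 to 72.5 CPM, some above and some below, between 55.5 and 75.8 CPM. Socs3, a feedback inhibitor of leptin and cytokine signalling, ran from 1.61 to 2.85 CPM (median 2.16) in non-diabetic and from 2.10 to 3.35 CPM (median 3.09) in diabetic mice. Its log2 fold change was 0.40 (SE 0.17, adjusted p = 0.777, exact permutation p = 0.0210), on 13 to 39 reads per library, with 5 of 7 diabetic libraries above the non-diabetic range. Pdk4, a kinase that restrains glucose oxidation (0.085), Fkbp5, a glucocorticoid target (0.20, and 0.11 without non-diabetic library 2), Dbp, a clock output gene (-0.15), Hspa5, a chaperone of the endoplasmic reticulum (-0.0038), and Fos, an immediate early gene (-0.0043), did not pass either. The interval of Fos, -0.49 to 0.48, was wide beside that of Hspa5, -0.081 to 0.073.

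Glial genes did not separate the vehicle groups, also where the same fit called them between FGF1 and vehicle. Gfap, the astrocyte filament protein, ran from 137 to 264 CPM (median 216) in non-diabetic and from 185 to 283 CPM (median 228) in diabetic mice, with a log2 fold change of 0.0076 (95% interval -0.24 to 0.26). Under FGF1 it was higher by 1.29 than in either vehicle group (adjusted p = 4.05e-09 and 3.60e-09). Vim, another filament gene, differed by 0.0025 and Aqp4, the astrocyte water channel, by -0.028 between the vehicle groups. Gpr17 and Bmp4, genes of oligodendrocyte precursors on their way to myelin, differed by -0.060 (SE 0.085) and -0.046 (SE 0.28), and were higher by 1.87 and 1.90 under FGF1 than in diabetic vehicle mice. Mbp, a major myelin protein, differed by -0.030 (SE 0.083).

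Marker lists of 24 cell types held 188 genes of the table, and 0 passed the adjusted threshold in edgeR, with 15 (7.98%) at an unadjusted p-value under 0.05 against 6.18% of all genes. The list medians of the log2 fold change ran from -0.23 to 0.15 and were within 0.1 of no difference for 19 lists, beside a median of -0.00052 over all genes. Summed over a list, the CPM of diabetic and non-diabetic libraries overlapped in all 24. In bulk tissue, fewer cells of a type and less RNA per cell cannot be told apart. No listed gene of the table was at 0 in all 14 libraries.

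**Figure D4:**
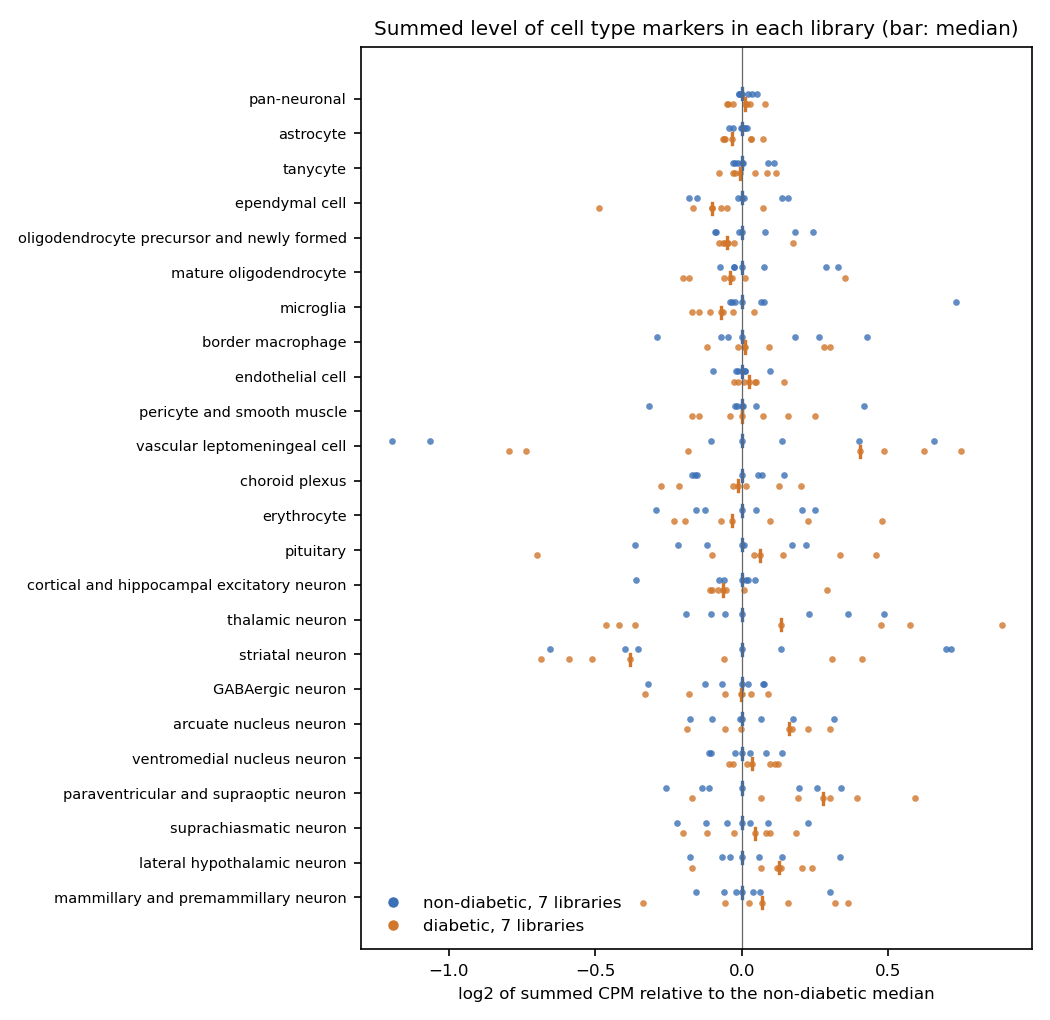
Summed CPM of the markers of 24 cell types in each of 14 libraries, as log2 relative to the median of the 7 non-diabetic libraries, with 7 diabetic libraries beside them and bars at the group medians. The groups overlap in each list, and non-diabetic library 2 is the single high point of the microglia list.

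Neurons of the hypothalamic nuclei had small medians, positive over all 14 libraries. The arcuate list, with 10 of 11 genes measured, had a median of 0.098 and 7 genes above 0, with Agrp highest and Cartpt lowest, and 0.042 without non-diabetic library 2. Its summed level ran from 217 to 305 CPM (median 245) in non-diabetic and from 215 to 301 CPM (median 274) in diabetic mice, nearly the same range. The paraventricular and supraoptic list, 7 genes with Avp the most abundant, had a median of 0.088 and summed levels of 429 to 650 CPM (median 514) and 457 to 775 CPM (median 622), a ratio of the means of 1.15. Medians were 0.078 for 5 lateral hypothalamic genes, 0.064 for 5 of 7 mammillary and premammillary genes, 0.034 for 6 ventromedial genes and 0.017 for 5 of 6 suprachiasmatic genes. Without non-diabetic library 2 these 4 medians were 0.073, 0.053, 0.042 and -0.0044, so the suprachiasmatic one changed sign. Hcrt (0.15) was the highest lateral gene and Nr5a1, the transcription factor that defines ventromedial neurons (0.16), the highest ventromedial gene. Pan-neuronal genes such as Map2 and Snap25 had a median of 0.013 over 10 genes, and their summed level varied by only 0.13 log2 units over the 14 libraries.

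Neurons of regions around the hypothalamus varied more between mice than between groups. The striatal list had all 9 genes negative, with a median of -0.22 and Adora2a, an adenosine receptor of striatal neurons, lowest at -0.72 (SE 0.48). Its summed level ran from 201 to 518 CPM (median 316) in non-diabetic and from 197 to 420 CPM (median 242) in diabetic mice, a span of 1.40 log2 units over all libraries. No striatal gene had an unadjusted p-value under 0.05, and without non-diabetic library 2 the median was -0.26. The thalamic list had all 8 genes positive with a median of 0.032 (0.11 without non-diabetic library 2) and a span of 1.35 log2 units, and diabetic library 1 was highest at 624 CPM. Cortical and hippocampal excitatory genes, 6 of 10 in the table, had a median of 0.097, and 8 GABAergic genes a median of -0.038. Lists added after the values were seen placed the same libraries at the ends: midbrain dopamine neuron genes (7 of 10 in the table, median 0.071) were highest in non-diabetic library 1 at 435 CPM and next in diabetic library 1 at 433 CPM, and lowest in diabetic library 4 at 98.7 CPM. Basal forebrain cholinergic genes (6 genes, median -0.24) were highest in non-diabetic library 6 at 103 CPM and lowest in diabetic library 1 at 11.4 CPM. What set these libraries apart was not tested.

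Microglia markers had a median far from 0 beside most of the 24 cell type lists, and much of it rested on 1 library. All 12 genes were lower in diabetic mice, with a median of -0.23, from -0.12 for Fcrls to -0.62 for Aif1, and 6 had an unadjusted p-value under 0.05. The summed level ran from 312 to 533 CPM (median 321) in non-diabetic and from 286 to 330 CPM (median 306) in diabetic mice, a ratio of the means of 0.863. The highest value is non-diabetic library 2, and the next non-diabetic library stood at 338 CPM. Without that library the median was -0.080, still with 12 genes lower, and 2 had an unadjusted p-value under 0.05. Csf1r, the receptor that microglia need to survive and the most abundant gene of the list, ran from 70.9 to 123 CPM (median 76.3) in non-diabetic and from 69.4 to 76.4 CPM (median 72.9) in diabetic mice. Its log2 fold change was -0.18 (SE 0.084, adjusted p = 0.796), and -0.055 (SE 0.048) without non-diabetic library 2. Aif1, which encodes the microglial protein Iba1, ran from 2.18 to 6.85 CPM (median 3.04) and from 1.75 to 2.86 CPM (median 2.05), with a log2 fold change of -0.62 (SE 0.21, adjusted p = 0.717) and -0.37 (SE 0.16) without it. Cx3cr1, the fractalkine receptor, differed by -0.14 (SE 0.093) and by -0.044 (SE 0.079) without it. In the same fit, the median of the list was 0.40 between FGF1 and non-diabetic vehicle and 0.63 between FGF1 and diabetic vehicle, comparisons that share these vehicle libraries.

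Other glia differed less. The 12 mature oligodendrocyte markers were all lower in diabetic mice, with a median of -0.12 and Ugt8a, an enzyme of myelin galactolipids, lowest at -0.34, and Mog and Ugt8a had an unadjusted p-value under 0.05. Their summed level ran from 5209 to 6893 CPM (median 5490) in non-diabetic and from 4774 to 6998 CPM (median 5335) in diabetic mice, and diabetic library 1 was the highest of all. Precursor and newly formed oligodendrocyte genes had a median of -0.061 with 9 of 10 negative. The 12 astrocyte genes had a median of -0.0090, and their summed level varied by 0.14 log2 units over the 14 libraries. Among astrocyte genes, Agt, the angiotensinogen gene (0.15), had an unadjusted p-value under 0.05. Tanycytes, the cells that line the floor of the third ventricle, had a median of 0.037 over 10 of 12 genes, with Crym at -0.28 and Adm at 0.53. All 9 measured ependymal genes were lower, with a median of -0.10 and Rarres2 lowest at -0.32, and their summed level ran from 63.2 to 79.9 CPM (median 71.6) and from 51.0 to 75.2 CPM (median 66.7).

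Vessel and border cell lists differed in their spread between mice. Vascular leptomeningeal genes, the fibroblasts of the brain's coverings, had the highest median of the 24 cell type lists over all 14 libraries, 0.15, with 8 of 10 positive and Slc6a13, a GABA and taurine transporter, highest at 0.39. Their summed level ran from 60.4 to 218 CPM (median 138) in non-diabetic and from 79.8 to 232 CPM (median 183) in diabetic mice, a span of 1.94 log2 units, and the median was 0.074 without non-diabetic library 2. Medians were 0.019 for 12 endothelial genes, whose summed level spanned 0.24 log2 units, -0.047 for 8 pericyte and smooth muscle genes and 0.051 for 4 of 6 border macrophage genes (-0.0072 without that library). Among endothelial genes, Kdr, a receptor of vascular endothelial growth factor (0.21), and Mfsd2a, a lipid transporter of the blood-brain barrier, had an unadjusted p-value under 0.05. For 4 of 8 choroid plexus genes the median was -0.021, for 4 of 5 erythrocyte genes 0.043, and for 2 of 9 pituitary genes 0.046 (-0.042 without that library). The 8 blood leukocyte markers were not in the table, so nothing was measured for those cells.

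Function lists, 21 of them with 474 genes in the table, also held 0 genes past the adjusted threshold in edgeR, with 32 (6.75%) at an unadjusted p-value under 0.05 against 6.18% of all genes. Medians were within 0.1 of no difference for 17 lists, and summed levels overlapped between groups in all 21. Among lists of metabolism, the medians were 0.0056 for insulin and leptin signalling (24 genes), 0.034 for metabolic hormone receptors (21 genes), 0.010 for glucose uptake, glycolysis and glycogen (31 genes) and 0.019 for sterol and fatty acid synthesis (27 genes). Fasting and fatty acid oxidation genes had a median of 0.061, with 12 of 17 positive. In these 5 lists 8 genes had an unadjusted p-value under 0.05, all higher in diabetic mice. In the order given, the lists held 2 of 24, 1 of 21, 1 of 31, 3 of 27 and 1 of 17 such genes. Of all genes, 6.18% had such a p-value, 3.04% higher and 3.14% lower. Of the 8, Slc2a4 is the insulin-responsive glucose transporter (0.33) and Pik3r1 a subunit of phosphoinositide 3-kinase. The others were Socs3, the neuropeptide Y receptor gene Npy1r, the pyruvate dehydrogenase kinase gene Pdk2, and Idi1, Nsdhl and Mvd of sterol synthesis. Without non-diabetic library 2 these lists held 5 such genes higher and 0 lower. The median was then 0.034 for the fasting list and 0.011 for the hormone receptors. The summed level of the insulin and leptin signalling genes ran from 2507 to 2606 CPM in non-diabetic and from 2548 to 2630 CPM in diabetic mice, a span of 0.069 log2 units over the 14 libraries.

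Glucocorticoid targets had the highest median of the function lists, 0.14, with 14 of 18 genes positive and 1, the clock gene Per1, at an unadjusted p-value under 0.05. Their summed level ran from 849 to 1306 CPM (median 1253) in non-diabetic and from 1182 to 1349 CPM (median 1285) in diabetic mice. Non-diabetic library 2 was the lowest, with the next non-diabetic library at 1145 CPM, and without it the median was 0.061. Metallothioneins, metal-binding proteins that glucocorticoids induce, had a median of 0.13 over 3 genes, and osmotic stress genes, which include Avp and Oxt, a median of 0.0996 over 11 genes, or 0.085 and 0.063 without that library. Medians were 0.022 for 29 neuropeptides (-0.022 without that library), 0.034 for 10 genes of neuropeptide processing, -0.0025 for 19 clock genes and -0.0032 for 15 immediate early genes. Stress lists lay as close to 0, at -0.0066 for 17 heat shock chaperones and -0.0089 for 20 genes of endoplasmic reticulum and integrated stress. Reactive astrocyte genes (12 in the table) had a median of 0.0042, FGF receptors and ERK feedback -0.0071 over 17, and the cell cycle 0.016 over 10. The 80 cytosolic ribosomal protein genes had a median of 0.011 and the 78 genes of the respiratory chain and ATP synthase -0.023, with 52 of them negative. No mitochondrially encoded gene was in the table.

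Interferon and antigen presentation genes had the lowest medians of all, and these rested on 1 library. All 11 MHC class I genes were lower in diabetic mice, with a median of -0.46, and 4 had an unadjusted p-value under 0.05. Their summed level ran from 199 to 664 CPM (median 211) in non-diabetic and from 187 to 236 CPM (median 209) in diabetic mice. Without non-diabetic library 2 the median was 0.031, with 6 genes positive and 5 negative. All 19 interferon response genes were lower, with a median of -0.27, which was -0.036 without that library. Added lists of 10 interferon-inducible GTPases and 7 MHC class II genes went from -0.80 to -0.012 and from -0.93 to 0.079. For Gbp2 the log2 fold change was -1.98 (SE 0.58, adjusted p = 0.717), and -0.37 (SE 0.21, adjusted p = 0.965) without the library. B2m, the light chain shared by MHC class I molecules, went from -0.46 (SE 0.20) to -0.060 (SE 0.074), and Tap1, a peptide transporter, from -0.80 (SE 0.32) to -0.095 (SE 0.13). Psmb9, a subunit of the immunoproteasome whose exons overlap those of Tap1 on the opposite strand, went from -1.28 (SE 0.45) to -0.36 (SE 0.26). Igtp, an interferon-inducible GTPase, went from -1.04 to 0.017, and Cd74 from -1.33 to 0.079, so their direction turned.

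The promoters of these genes were read because the genes stood together in 1 library. Of the 34 genes above all other libraries in non-diabetic library 2, 25 had a promoter entry of 300 bases, from 250 before to 50 after the start of the gene (RefSeq, GRCm38.p6). The core of the interferon-stimulated response element, GAAANNGAA on either strand, was found in 12 of the 25 (48%), where 8.56% of all 32851 promoters held it. The gamma-activated sequence, TTCNNNGAA, which reads the same on both strands, was found in 6 (24%), where 8.30% of all promoters held it. Both were found in 5, against 1.07% of all promoters, and these genes were chosen after their values were seen. A match is a run of letters and was not tested as a binding site. The promoters of Gbp2 (chr3:142620413-142620712), Igtp (chr11:58199306-58199605) and Irgm2 (chr11:58214727-58215026), all on the plus strand, are printed 5′ to 3′ with the matches in capitals. In Gbp2 the response element core lies on the minus strand at bases 193 to 201. In Igtp the gamma-activated sequence lies at bases 206 to 214 and the response element core at bases 217 to 225, and in Irgm2 they lie at bases 176 to 184 and 187 to 195. Exons annotated to Igtp and Irgm2 overlap on the same strand, so counting may have shared their reads. The promoters of H2-Aa, an MHC class II chain, and C3 held neither run of letters.
Gbp2: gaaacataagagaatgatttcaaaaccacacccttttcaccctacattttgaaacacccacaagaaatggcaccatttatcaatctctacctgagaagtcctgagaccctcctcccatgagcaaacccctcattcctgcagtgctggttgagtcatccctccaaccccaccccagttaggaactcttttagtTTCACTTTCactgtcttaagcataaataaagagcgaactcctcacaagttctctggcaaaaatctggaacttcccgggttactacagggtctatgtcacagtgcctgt
Igtp: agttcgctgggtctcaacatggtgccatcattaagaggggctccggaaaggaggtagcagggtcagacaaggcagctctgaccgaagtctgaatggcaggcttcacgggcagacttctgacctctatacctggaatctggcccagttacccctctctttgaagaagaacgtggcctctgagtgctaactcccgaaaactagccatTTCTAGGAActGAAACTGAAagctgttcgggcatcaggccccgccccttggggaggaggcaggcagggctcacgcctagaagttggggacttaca
Irgm2: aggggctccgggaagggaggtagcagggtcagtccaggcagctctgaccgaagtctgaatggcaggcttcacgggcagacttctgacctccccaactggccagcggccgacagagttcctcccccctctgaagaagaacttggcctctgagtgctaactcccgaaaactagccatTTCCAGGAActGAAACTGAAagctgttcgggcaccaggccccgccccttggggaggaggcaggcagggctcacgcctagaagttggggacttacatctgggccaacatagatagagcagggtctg

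Some genes varied far more between mice than between labels. Lars2, the mitochondrial leucyl-tRNA synthetase, had the largest within-group SD of all genes, 1.91 log2 units. It ran from 60.8 to 6557 CPM with a median of 191 in non-diabetic mice and from 284 to 2319 CPM with a median of 772 in diabetic mice. Its log2 fold change was -0.41 (SE 0.90, 95% interval -2.25 to 1.43), and 1.50 without non-diabetic library 1, so 1 library decided its direction. All 7 diabetic libraries lay above the non-diabetic median and inside the non-diabetic range (exact permutation p = 0.270). The wide spread of Lars2 was limited to Day 5. With TMM over all 47 libraries, it stood between 64.4 and 142 CPM in every library of Days 1 and 42. In the FGF1 libraries of Day 5 it ran from 89.8 to 8824 CPM, and the reason was not tested. Ptgds, the prostaglandin D synthase of meninges and choroid plexus, ran from 178 to 1133 CPM (median 765) in non-diabetic and from 387 to 1339 CPM (median 1090) in diabetic mice, with a log2 fold change of 0.34 (SE 0.38), and 0.17 without non-diabetic library 2, which was lowest. Slc6a3 had medians of 72.0 and 80.1 CPM and highest values of 172 and 169 CPM in the non-diabetic and diabetic groups, with a log2 fold change of 0.11 (SE 0.37). The ranges of the groups overlapped in these 3 genes, which were named after their values were seen.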

How the data were processed

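Hypothalamic mRNA of 47 ob/ob mice was sequenced from strand-specific libraries, 1 mouse each. The authors aligned the reads with STAR and deposited raw counts per gene, and neither the counting program nor its filter is stated. The labels' processing notes name the build GRCh38, so coordinates were taken by gene name from GENCODE M21 (GRCm38), which held 14180 of the 14221 genes, and promoter sequences from RefSeq (GRCm38.p6).

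The 23 libraries of Day 5 were fitted with edgeR 4.0.16 (R 4.3.3) after TMM, with 1 mean for each of 3 groups (7 non-diabetic, 7 diabetic, 9 FGF1), and contrasts were tested by the quasi-likelihood F test. The Benjamini-Hochberg adjustment covered every gene of a contrast. The low-count filter removed no gene. A call needed an absolute log2 fold change above 0.5 as well as adjusted p below 0.05. Total counts of the 14 vehicle libraries ran from 7579695 to 12451642. Intervals of 95% rest on the spread between mice, and 13 genes with no estimable SE had none. Levels are CPM scaled by TMM factors. Single genes and library measures were also tested on log2(CPM + 0.5) or the measure itself by two-sided exact permutation over the 3432 splits of 14 libraries into 7 and 7. Lists are described by counts and medians, with no set test.

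The rule for named genes took called genes and, with none called, the 6 of smallest p-value in each direction with a mean of at least 1 CPM, beside 28 genes given by symbol. The lists, 47 in all and 45 with a gene in the table, were written by hand, and 4 more were added after seeing the data. The comparison, its members, lists and genes were chosen with earlier results of these data known. Alternatives used DESeq2 1.42.0, limma 3.58.1, other filters and sets of libraries. The programs were tested on simulated data. Single-nucleus data of the study were not analysed here.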

Additional observations from a re-analysis of the deposited data

Results flagged for a closer look

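Within each group of 7 libraries, the gap between the most extreme library and its neighbour, divided by the whole range, was above Dixon's 95% critical value in 32 of 213 tests (15%), on the named genes, list sums and library measures of each group. Chance flags about 1 in 20 groups, and the tests are not independent, since lists share libraries and genes. The tests include 14 genes and 4 lists chosen after their values were seen, several of them because 1 library was high in them, so their share was partly fixed by that choice. They gave 13 of the 32, from 36 tests, and the other items gave 19 from 177 tests (10.7%).

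Non-diabetic library 2 was the extreme one in 18 of the 32. Of these 18, 12 are items chosen after its high levels were seen (the 10 genes named next and the sums of interferon-inducible GTPases and MHC class II), so for them the ratio restates what chose them. The other items hold 6. It was high in Gbp2 (ratio 0.963), Igtp (0.934), B2m (0.932), Cd74 (0.923), Psmb9 (0.922), H2-K1 (0.911), Tap1 (0.906), C3 (0.873), Csf1r (0.808) and Aif1 (0.746). It was high in the sums of interferon-inducible GTPases (0.95), MHC class II (0.929), MHC class I (0.927), microglia (0.881) and interferon response genes (0.872). It was low in Tut1 (0.656), Zbtb8b (0.596) and the sum of glucocorticoid targets (0.647).

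Diabetic library 1 was high in Mbp (0.691) and Aqp4 (0.61), and in the sums of precursor and newly formed oligodendrocyte (0.809), cortical and hippocampal excitatory neuron (0.738), mature oligodendrocyte (0.662) and endothelial cell genes (0.578). Non-diabetic library 1 was high in Lars2 (0.868), with 6557 CPM against 919 CPM in the next library, and in glucose uptake, glycolysis and glycogen genes (0.614), and low in Hspa5 (0.581). Diabetic library 4 was high in Khdc4 (0.663) and diabetic library 6 in Pomc (0.617). Non-diabetic library 4 was low in cortical and hippocampal excitatory neuron genes (0.67), non-diabetic library 5 was high in immediate early genes (0.619), and non-diabetic library 6 was low in Snx14 (0.678). What set these libraries apart was not tested.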

How the results depend on the processing

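The count of genes past both thresholds between the vehicle groups was 0 in edgeR and in each of the alternatives: size factors of DESeq2, the DESeq2 test, quantile normalization with limma-trend, limma-voom with sample weights, no filter, at least 10 counts in every library, all 47 libraries, the 14 vehicle libraries alone, thinned counts, library size as a covariate, and each of 14 libraries left out in turn. At an unadjusted p-value under 0.05 they gave 193 genes (all 47 libraries) to 1032 (limma-voom), and 609 to 1248 with a library left out. The smallest adjusted p-value with a library left out ran from 0.0659 (Nckap5, without diabetic library 7) to 1.00, and the median absolute log2 fold change from 0.045 to 0.054. Leaving out diabetic library 1 and non-diabetic library 1 together, chosen after seeing the data, gave 0 called genes and 929 at an unadjusted p-value under 0.05. FGF1 against non-diabetic vehicle gave 219 called genes with all 47 libraries in the fit, beside 370, and the cause was not tested.

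Of 53 named genes, 14 changed sign in at least 1 alternative, 70 times in all, and 23 of 49 list medians did. With a library left out in turn, log2 fold changes ran from -0.18 to 0.12 for Pomc, -0.19 to 0.031 for Crh, -0.078 to 0.061 for Gfap, -0.058 to 0.072 for Vim, -0.11 to 0.049 for Aqp4, -0.32 to 0.073 for Bmp4, -0.024 to 0.024 for Slc2a1 and -0.13 to 0.022 for Mbp. They ran from -0.27 to 0.12 for Fos, -0.016 to 0.023 for Hspa5, -1.18 to 0.017 for Igtp, -1.53 to 0.079 for Cd74, -0.14 to 0.43 for Slc6a3 and -0.84 to 1.50 for Lars2. Quantile normalization gave 0.014 for Crh, -0.0071 for Vim, 0.0053 for Hspa5 and 1.23 for Lars2. Limma-voom gave -0.036 for Pomc, -0.014 for Slc2a1, 0.0097 for Hspa5 and 1.30 for Lars2. Thinning gave -0.011 for Vim, and library size as a covariate gave 0.0077 for Fos. DESeq2 gave 0.0061 for Igtp and 0.029 for Cd74. Without both libraries 1 the values were -0.018 for Gfap, 0.0075 for Fos, 0.012 for Hspa5 and 1.08 for Lars2.

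No paired analysis was possible because replicate numbers follow the order of deposition and the labels pair no mice. A batch term was not run, since the deposited sample table gives 1 preparation code for all Day 5 libraries. Limits: the labels do not define diabetic, the deposited sample table joins both vehicle groups, and each mouse gave 1 library. At this depth, genes under 10 CPM had a median SE of 0.15, so small differences in rare transcripts were not detectable. Genes outside the table were not measured.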
